A study of Mus musculus with 9 samples.

Results

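Nuclear long noncoding RNAs are transcripts that are kept largely in the nucleus and are not translated. A set of 7 such genes was examined in mouse hippocampus: Malat1, Lncpint, Neat1, Meg3, Miat, Rian and Snhg11. The list was drawn up with earlier results of these data known: Malat1 and Lncpint were selected on their difference between operated mice with and without Maresin 1, and the rest were added as RNAs of the same kind. A gene was measured where a probe set of the array names it and no other gene, and the probe set with the highest mean stood for it. By that rule 5 of the 7 genes were measured, of 18820 genes in all. Neat1 and Miat had no such probe set in the probe table used and were not analysed here.

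All mice were C57BL/6 and 12 to 14 weeks old, and each of the 3 groups comprised 3 arrays that the titles call biological replicates. Control mice carry no stated procedure or vehicle. Surgery mice had a tibia fracture made by orthopedic surgery. Maresin 1 with surgery mice received Maresin 1, a lipid mediator made from docosahexaenoic acid, before the same operation; the sources used here give no dose or route. Hippocampi were collected 72 h after surgery, and 6 µg of total RNA, extracted with Trizol and labelled with biotin, was used for each Affymetrix array.

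Malat1 is an abundant RNA of nuclear speckles, the bodies that store splicing factors, and Neat1 is the scaffold of paraspeckles. Meg3 and Rian are transcribed from the maternal chromosome of the imprinted Dlk1-Dio3 domain, which also yields a large cluster of microRNAs and, from introns of Rian, small nucleolar RNAs. Lncpint is a p53-responsive transcript reported to bind the Polycomb repressive complex PRC2. Snhg11 is a small nucleolar RNA host gene with high expression in neurons, and Miat, also called Gomafu, is a neuronal RNA that binds splicing factors.

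RefSeq promoter sequences of 4 of the measured genes are shown because the RNAs are compared by the arrays and these are the starts from which they are transcribed. Each runs from 250 bases before the annotated start to 50 after it, 5′ to 3′ on the gene's strand, in GRCm38.p6. Capitals mark matches, on either strand, to any of 5 motifs: the motif TATAAA, the motif CCAAT, the motif GGGCGG, the motif CACGTG and the motif TGACG. Malat1 lies on the minus strand at chr19:5802623-5802922, Lncpint on the minus strand at chr6:31218425-31218724, Meg3 (the first of its annotated starts) on the plus strand at chr12:109540746-109541045 and Snhg11 on the plus strand at chr2:158375463-158375762.
Malat1: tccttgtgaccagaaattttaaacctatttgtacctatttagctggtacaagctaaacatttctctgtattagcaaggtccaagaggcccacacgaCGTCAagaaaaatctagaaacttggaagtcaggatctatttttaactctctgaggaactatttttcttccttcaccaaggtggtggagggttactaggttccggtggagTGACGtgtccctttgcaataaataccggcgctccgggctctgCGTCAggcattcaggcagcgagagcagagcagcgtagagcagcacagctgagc
Lncpint: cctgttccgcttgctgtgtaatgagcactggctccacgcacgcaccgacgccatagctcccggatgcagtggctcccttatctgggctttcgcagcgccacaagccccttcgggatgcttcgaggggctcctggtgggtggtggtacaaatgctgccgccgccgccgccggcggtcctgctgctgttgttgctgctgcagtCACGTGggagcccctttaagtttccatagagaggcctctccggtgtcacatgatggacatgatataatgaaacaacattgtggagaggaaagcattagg
Meg3: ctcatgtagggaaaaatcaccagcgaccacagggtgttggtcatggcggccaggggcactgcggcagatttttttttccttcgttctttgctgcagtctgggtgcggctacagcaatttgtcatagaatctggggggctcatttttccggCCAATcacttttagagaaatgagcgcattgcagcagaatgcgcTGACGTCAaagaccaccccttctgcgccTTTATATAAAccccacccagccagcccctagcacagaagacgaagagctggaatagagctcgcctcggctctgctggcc
Snhg11: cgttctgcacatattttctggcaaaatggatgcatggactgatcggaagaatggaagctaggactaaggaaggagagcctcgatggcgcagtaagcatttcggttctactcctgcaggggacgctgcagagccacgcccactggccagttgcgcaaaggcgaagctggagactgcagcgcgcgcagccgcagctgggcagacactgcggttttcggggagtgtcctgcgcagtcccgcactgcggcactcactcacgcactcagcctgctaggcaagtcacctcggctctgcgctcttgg
Of the 6 listed genes that the promoter table holds, Meg3 was the one with a TATAAA match, which 13.62% of the 32851 promoters of the table hold. Its matches on the 2 strands overlap, with first bases at -25 and -29 from the start. Meg3 also held CCAAT (37.41% of promoters) at -100 and an overlapping pair of TGACG matches at -57 and -54. Malat1 held TGACG on the same strand at -45 and on the opposite strand at -154 and -3, a motif found in 20.81% of promoters. Lncpint held CACGTG (7.15%) at -49. GGGCGG, held by 35.66% of promoters, had no match in these 4 windows, and Snhg11 held none of the motifs. The bases G and C made up 47.0% of the Malat1 window, 58.7% of the Lncpint window, 53.7% of the Meg3 window and 60.0% of the Snhg11 window. A match describes letters and does not show binding.

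The microRNAs of the Dlk1-Dio3 domain are shown next, since their probe sets are set against Meg3 below. The 3 microRNA genes of the domain with the highest probe set signals were Mir341, Mir134 and Mir485. Their RefSeq mature sequences follow, with the seed, bases 2 to 8, in capitals.
mmu-miR-341-5p: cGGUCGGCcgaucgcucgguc
mmu-miR-341-3p: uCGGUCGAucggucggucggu
mmu-miR-134-5p: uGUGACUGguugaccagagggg
mmu-miR-134-3p: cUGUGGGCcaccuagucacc
mmu-miR-485-3p: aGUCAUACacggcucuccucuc
All 5 lie on the plus strand of chromosome 12, with miR-341-3p at chr12:109611556-109611576 and miR-485-3p at chr12:109734946-109734967 in GRCm38.p6. The 36 measured microRNA genes of the domain have 68 mature sequences with 66 distinct seeds, so few of them share one. The pairs that do are miR-379-3p with miR-411-3p and miR-376b-5p with miR-376c-5p. A probe set named for a microRNA gene cannot tell the mature RNA, its hairpin and the long host transcript apart.

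Of hippocampal markers, 6 of 6 dentate granule, 4 of 4 measured CA1 and 5 of 5 CA3 genes exceeded the olfactory receptor level. That level, a guide to background taken from olfactory receptor genes, was 5.86 on the log2 scale. It was also exceeded by 13363 of all 18820 genes and by 7 of 7 markers of thalamus and neighbouring cortex. The markers were therefore detected, but this does not identify the tissue. Medians of the deposited signals ranged from 54.1 to 100 between arrays, so the signals were quantile normalised and given as log2(signal + 16); every level and difference below is on that scale. Control replicates 2 and 3 stood apart. Ttr, the choroid plexus transcript for transthyretin, was at 12.55 and 12.71 in them against 7.55 in control replicate 1 and 6.19 to 8.34 in the operated mice. In bulk tissue fewer cells of a type and less RNA per cell cannot be told apart. Results that involve the controls are therefore given with and without single arrays where that matters.

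Malat1 was highest in the mice given Maresin 1. Its levels were 11.79, 11.56 and 11.16 in control replicates 1 to 3, 11.35, 11.55 and 11.50 in the surgery arrays and 11.75, 11.80 and 12.04 in the Maresin 1 arrays. All 3 Maresin 1 arrays lay above all 3 surgery arrays, while control replicate 1 lay within the Maresin 1 range and control replicate 3 was the lowest of the 9. Group means were 11.50 ± 0.32 in control, 11.47 ± 0.11 after surgery and 11.86 ± 0.16 with Maresin 1 (SD, n = 3 in each).

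Lncpint was low in every surgery array and in control replicate 3. It stood at 9.66, 9.69 and 8.98 in the controls, 8.89, 9.16 and 8.99 after surgery and 9.45, 9.33 and 9.76 with Maresin 1. The surgery and Maresin 1 arrays did not overlap, and the control group spanned both. The means were 9.44 ± 0.40, 9.01 ± 0.14 and 9.51 ± 0.22 (SD, n = 3 in each).

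Meg3 and Rian, the transcripts of the imprinted domain, were highest in control replicate 1. Meg3 stood at 11.49, 11.45 and 10.73 in control, 10.85, 11.00 and 10.90 after surgery and 10.99, 10.99 and 11.35 with Maresin 1. Rian stood at 7.96, 7.32 and 6.96 in control, 6.89, 7.24 and 7.29 after surgery and 7.12, 7.30 and 7.65 with Maresin 1. For both genes the 3 groups overlapped and control replicate 3 lay below the other controls, with Maresin 1 replicate 3 the highest of the operated mice. Mean levels of Meg3 were 11.22 ± 0.42, 10.92 ± 0.08 and 11.11 ± 0.21, and those of Rian 7.42 ± 0.51, 7.14 ± 0.22 and 7.36 ± 0.27 (SD, n = 3 in each).

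Snhg11, like Meg3, was highest in control replicates 1 and 2. Its levels were 10.55, 10.50 and 9.87 in control, 9.89, 10.05 and 10.03 after surgery and 10.19, 10.04 and 10.43 with Maresin 1, with means of 10.30 ± 0.38, 9.99 ± 0.09 and 10.22 ± 0.20 (SD, n = 3 in each). Again the groups overlapped and control replicate 3 was the lowest array. A second probe set of Snhg11 alone stood at 7.53, 7.40 and 7.07 in control, 6.85, 7.05 and 7.26 after surgery and 7.20, 7.14 and 7.59 with Maresin 1. Its differences were -0.28 for surgery minus control and 0.26 for Maresin 1 with surgery minus surgery.

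The plot of levels by array shows these values.

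**Figure D1:**
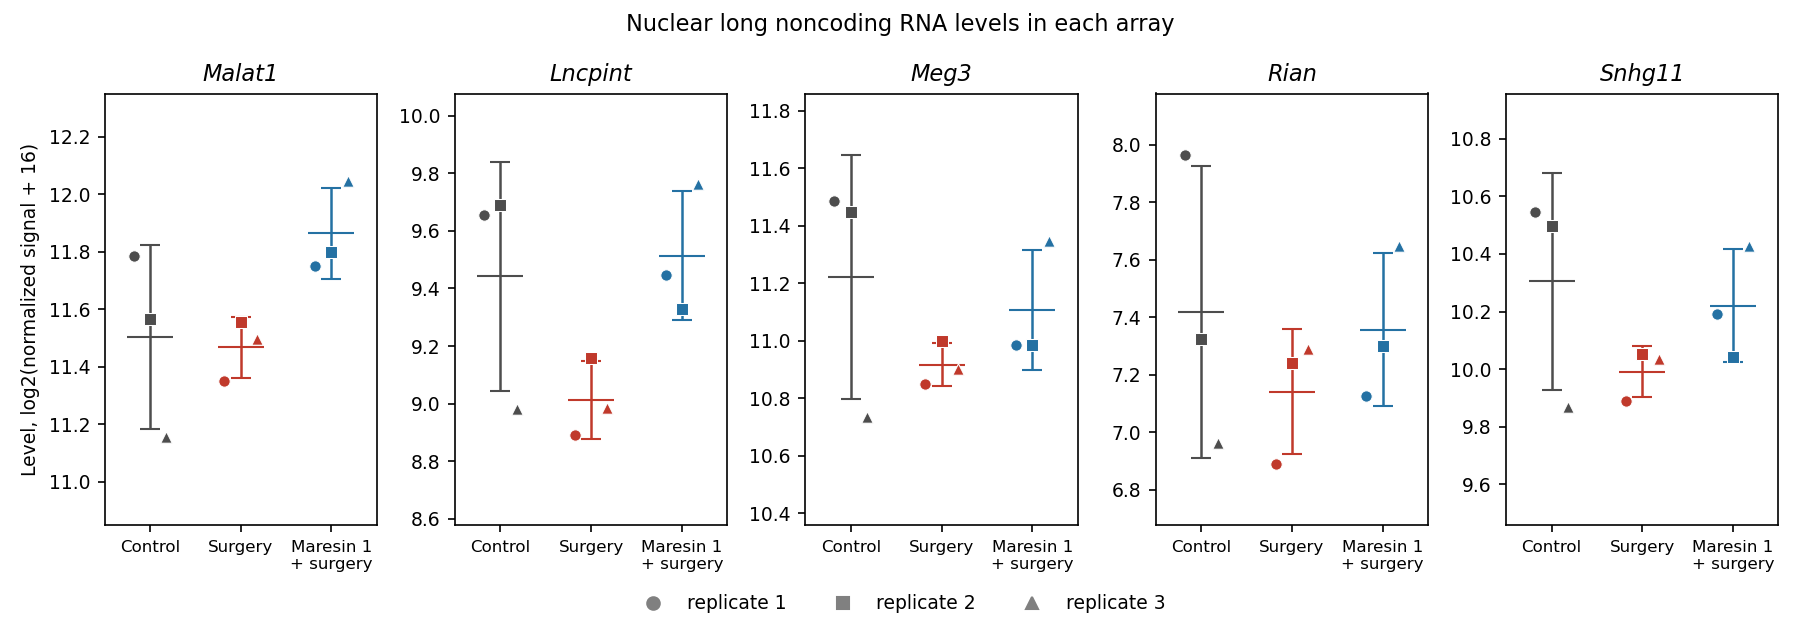
Level of each measured gene, log2(normalized signal + 16), in the 9 arrays, one panel per gene with its own vertical axis; points are arrays, marked by replicate number, horizontal lines are group means and bars are 1 SD (n = 3). Control replicate 3 lies well below control replicate 1 in all 5 panels, and the Maresin 1 points of Malat1 and Lncpint lie above all their surgery points.

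The controls were far more spread than most genes. The distance from the lowest to the highest control was 0.63 for Malat1, 0.71 for Lncpint, 0.75 for Meg3, 1.00 for Rian and 0.68 for Snhg11. Among the 13363 genes above the olfactory receptor level the median of that distance was 0.18, and it was smaller than the value of these genes in 96.6% to 99.0% of them. After surgery the genes spanned 0.15 (Meg3) to 0.40 (Rian), against a median of 0.13. With Maresin 1 they spanned 0.29 (Malat1) to 0.52 (Rian), against a median of 0.16.

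The comparison of surgery with control asks how the operation changed the hippocampus after 72 h. All 5 genes had a lower mean after surgery, and none passed the test (limma, adjusted by Benjamini-Hochberg across the 18820 genes, threshold 0.05). The background was the same: 0% of 18820 genes passed, while 6.21% had an unadjusted p under 0.05. Lncpint differed most, at -0.43 (SE 0.16, 95% interval -0.78 to -0.08, limma adjusted p = 0.745), or 1.35-fold lower. Its unadjusted limma p was 0.0205, and 0.547% of all genes had a lower difference. Lncpint was selected on a comparison that uses these same surgery arrays, so its p, interval and rank are no independent evidence.

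Snhg11 differed by -0.31 (SE 0.15, interval -0.63 to 0.00, limma adjusted p = 0.794), Meg3 by -0.31 (SE 0.16, interval -0.65 to 0.04, limma adjusted p = 0.796) and Rian by -0.28 (SE 0.21, interval -0.73 to 0.18, limma adjusted p = 0.860). Malat1 differed by -0.03 (SE 0.12, interval -0.31 to 0.24, limma adjusted p = 0.979), and its sign turned to 0.10 under scaling of each array to one median. That scaling moves the median difference of all genes from 0.02 to 0.10 and calls 37 genes, 12 higher and 25 lower. No member was without overlap between surgery and control, where 3.82% of all genes were lower and 7.71% higher without overlap.

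The size of these differences varied with single arrays and with the scaling. Without control replicate 3, Lncpint differed by -0.66 (limma adjusted p = 0.171), Meg3 by -0.55 (0.171), Snhg11 by -0.53 (0.195), Rian by -0.50 (0.494) and Malat1 by -0.21. Without control replicate 1 the differences were -0.32 for Lncpint, -0.17 for Meg3, -0.19 for Snhg11, 0.11 for Malat1 and under 0.01 in size for Rian. The number of genes called over all 18820 was 169 without that array. Control replicate 1 as the single control gave -0.82 for Rian, -0.64 for Lncpint, -0.57 for Meg3, -0.56 for Snhg11 and -0.32 for Malat1. Without surgery replicate 1 Rian differed by -0.15 and Malat1 by 0.02. Under median scaling Lncpint differed by -0.27, Meg3 by -0.16 and Snhg11 by -0.16.

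The next comparison, of Maresin 1 with surgery against control, asks how treated operated mice differed from controls. Here 16 genes, 0.085%, passed the test, 13 higher and 3 lower, and no member was among them. Under median scaling 38 genes passed, 5 higher and 33 lower. Malat1 was 0.36 higher (SE 0.12, interval 0.09 to 0.63, limma adjusted p = 0.283), or 1.28-fold, with an unadjusted limma p of 0.0128; 11.5% of genes had an unadjusted p under 0.05. Its difference was larger than that of 99.4% of genes, but the groups overlapped through control replicate 1. Malat1 was selected on a comparison that uses these same Maresin 1 arrays, so its p, interval and rank are no independent evidence. Genes without overlap made up 7.61% of the total when higher and 6.71% when lower.

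Without control replicate 1, Malat1 passed the test at 0.50 (SE 0.11, limma adjusted p = 0.0386), in a fit that calls 245 genes. The controls left in that fit were only those that stood apart with high Ttr. The array left out had the highest Malat1 level of the controls. This pass therefore rests on the atypical controls alone. Without control replicate 3 Malat1 was 0.19 higher, and 0.08 higher than control replicate 1 as the single control. The other 4 genes lay near their control means: Lncpint at 0.07 (SE 0.16, limma adjusted p = 0.918), Rian at -0.06 (SE 0.21, 0.948), Snhg11 at -0.08 (SE 0.15, 0.891) and Meg3 at -0.12 (SE 0.16, 0.860). Leaving out single arrays turned the sign of each of these 4, and against control replicate 1 alone Rian stood at -0.61, Meg3 at -0.38, Snhg11 at -0.33 and Lncpint at -0.14. Their intervals reached from -0.28 to 0.42 for Lncpint and from -0.52 to 0.40 for Rian, so differences of that size are not excluded by these arrays.

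The third comparison, Maresin 1 with surgery against surgery, was used to choose Malat1 and Lncpint and is therefore described without a test. It shares the surgery arrays with the surgery comparison and the Maresin 1 arrays with the other, so its values are no separate support for them. Lncpint was 0.50 higher (SE 0.16), or 1.42-fold, and Malat1 0.40 higher (SE 0.12), or 1.32-fold. Both had no overlap between the groups, as had 4.79% of all genes in that direction and 8.2% in the other, shares from which nothing is read here because the choice used this contrast. Snhg11 was 0.23 (SE 0.15), Rian 0.22 (SE 0.21) and Meg3 0.19 (SE 0.16) higher, each with overlap. Of all genes 7846 were higher and 10972 lower, 5.66% had an unadjusted limma p under 0.05 and 0% passed the adjusted test.

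Maresin 1 replicate 3 gave part of these values. Without it Lncpint was 0.38 higher, Malat1 0.31, Snhg11 0.13, Rian 0.07 and Meg3 0.07. Without surgery replicate 1 Rian was 0.09 higher. Under median scaling the differences were 0.36 for Lncpint, 0.21 for Malat1, 0.16 for Rian, 0.07 for Snhg11 and 0.02 for Meg3, while the median of all genes stood at -0.09.

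The plot of differences with their intervals shows the 3 comparisons side by side.

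**Figure D2:**
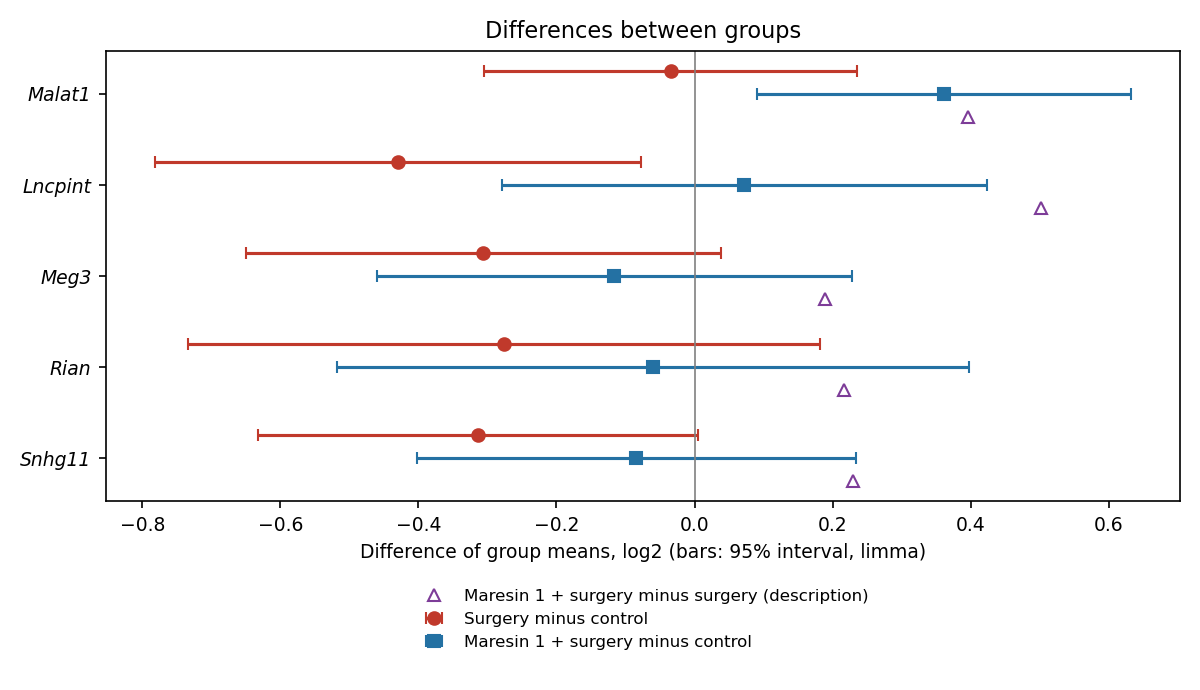
Difference of group means on the log2 scale for each measured gene; circles are surgery minus control and squares Maresin 1 with surgery minus control, with 95% limma intervals, and triangles are Maresin 1 with surgery minus surgery, drawn without an interval as a description. The Lncpint circle at -0.43 and the Malat1 square at 0.36 are the values whose intervals do not reach 0. Both genes were selected on a comparison that uses the same operated arrays, so these intervals are no independent evidence.

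Markers of some cell types differed between groups, and those of others between single arrays. All 6 measured dentate granule neuron markers were higher with Maresin 1 than after surgery, 4 of them without overlap, against 4.79% of all genes. Their mean deviation from the average array was 0.082 to 0.248 with Maresin 1, -0.095 to -0.074 after surgery and -0.315 to 0.060 in control. All 7 endothelial markers were higher after surgery than in control, 5 of them without overlap, against 7.71% of all genes. Their mean deviations were 0.072 to 0.158 after surgery, -0.299 to -0.213 in control and -0.074 to 0.250 with Maresin 1. The 13 measured choroid plexus markers were at 2.50 and 2.79 in control replicates 2 and 3 and between -0.893 and -0.607 in the other 7 arrays. Mean deviations of the 5 noncoding RNAs were 0.206 and -0.358 in those same 2 controls. Neuronal markers, 9 of 10 measured, stayed within -0.071 and 0.053. Oligodendrocyte markers were at 0.044, 0.042 and -0.237 in control replicates 1 to 3, and 5 of 6 measured were higher with Maresin 1 than after surgery. In that comparison 2 of 5 CA3, 3 of 7 astrocyte and 1 of 5 measured microglia markers were higher. CA1 pyramidal markers went the other way from the dentate ones: 4 of 4 measured were lower with Maresin 1 than after surgery (median -0.16). Of these, 2 were lower without overlap, against 8.2% of all genes. Mean deviations of the CA1 markers were -0.273 to 0.041 with Maresin 1, 0.035 to 0.139 after surgery and 0.006 to 0.032 in control. The part of these markers in the results was not tested.

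The 5 RNAs moved together from array to array. Over the 9 arrays, as a description, the Pearson correlation was 0.980 between Meg3 and Snhg11, 0.938 between Lncpint and Snhg11 and 0.907 between Lncpint and Meg3. Meg3 and Rian, neighbours in one domain, correlated at 0.833. Rian correlated with Snhg11 at 0.829 and with Lncpint at 0.750. Malat1 correlated with the rest from 0.654 with Meg3 to 0.795 with Lncpint. After group means were removed, the 4 values of Malat1 ran from 0.919 to 0.949, and those of Rian with Lncpint, Meg3 and Snhg11 from 0.756 to 0.806. The arrays share their groups, the tissue mix and the normalization, and the pairs share control replicate 3 as a low array and control replicate 1 as a high one. Without the 2 arrays farthest from the median of Malat1, its correlation with Meg3 was 0.408.

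Genes whose levels were most like each RNA over the 9 arrays were sought among 9407 others with a mean above that of the median gene. Malat1 was most like the transcript B230307C23Rik (r = 0.979), Dgki, a diacylglycerol kinase (0.950), and Dpm1, a dolichol-phosphate mannose synthase subunit (0.946). Lncpint was most like Apex2, a base excision repair nuclease (0.960), Mir341 (0.944) and Ralgapa2 (0.943). Meg3 was most like Myo9b, an unconventional myosin (0.987), Snhg11 (0.980) and Cdr1os (0.959), the transcript that gives rise to the circular RNA Cdr1as. Rian was most like Mdn1, a ribosome assembly ATPase (0.944), Fam135b (0.921) and Nfat5, the osmotic stress transcription factor (0.921). For Snhg11 they were Meg3 (0.980), Apex2 (0.977) and A330023F24Rik (0.971). The number of genes with r above 0.9 ran from 10 for Rian to 54 for Meg3.

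Malat1 set against Meg3 and Snhg11, but not against Lncpint or Rian, kept the 3 groups apart. This was seen after the values were known and therefore not tested. Between control and surgery Malat1 itself differed by -0.03, against -0.31 for Meg3 and -0.31 for Snhg11. The Malat1 level minus that of Meg3 in the same array was 0.30, 0.12 and 0.42 in control, 0.50, 0.56 and 0.60 after surgery and 0.76, 0.81 and 0.70 with Maresin 1. The 3 groups did not overlap and stood in that order, with means of 0.28 ± 0.15, 0.55 ± 0.05 and 0.76 ± 0.06 (SD, n = 3 in each). Set against each of 13362 genes above the olfactory receptor level, Malat1 gave this order without overlap for 19, or 0.142%. That share is no independent evidence. Its step from surgery to Maresin 1 uses the values on which Malat1 was selected, and the order was seen beforehand. The size of such a difference depends on the probe sets, so only its change between arrays can be read.

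Set against Snhg11, Malat1 gave 1.24, 1.07 and 1.29 in control, 1.46, 1.50 and 1.46 after surgery and 1.56, 1.76 and 1.62 with Maresin 1, again without overlap. Against Lncpint it was 1.88 to 2.17 in control, 2.40 to 2.51 after surgery and 2.28 to 2.47 with Maresin 1, so that both operated groups lay above control and overlapped each other. Against Rian it was 3.82 to 4.24, 4.21 to 4.46 and 4.40 to 4.62, with overlap between neighbouring groups. The step from surgery to Maresin 1 uses the values on which Malat1 was selected, so these orders are a description alone.

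**Figure D3:**
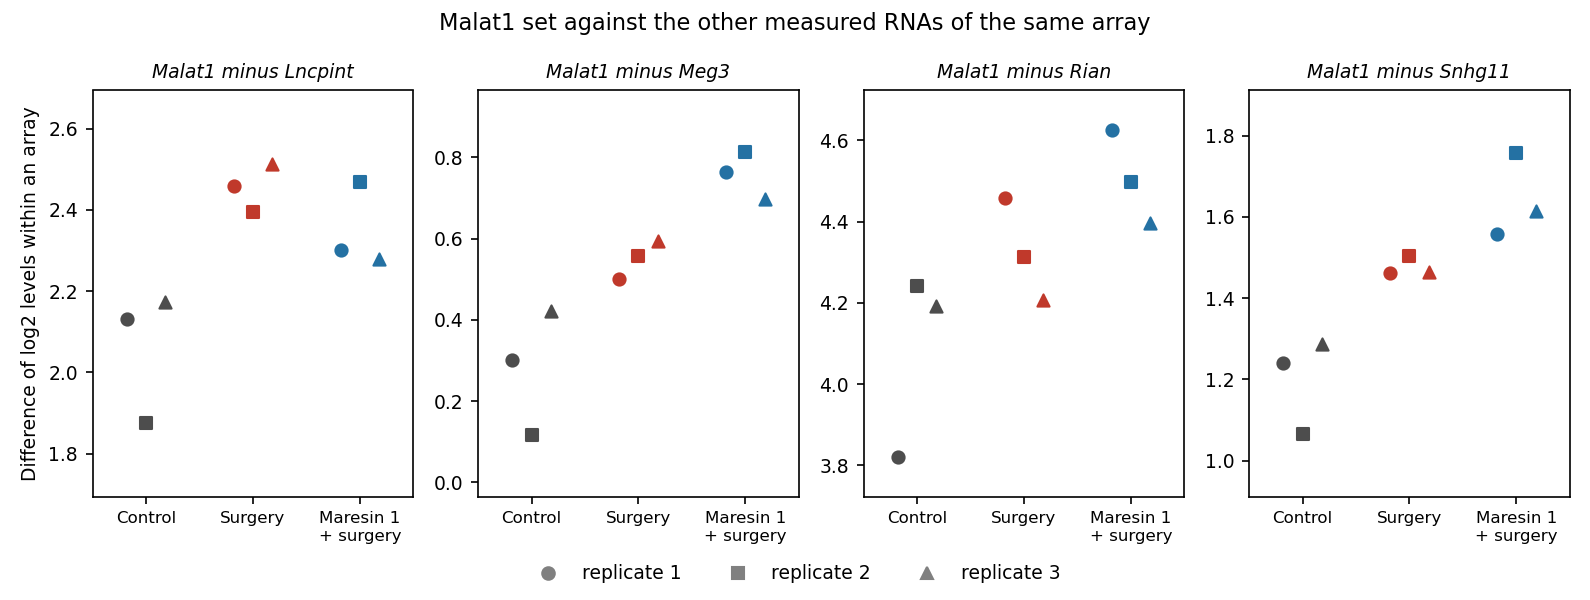
Level of Malat1 minus the level of another noncoding RNA in the same array, on the log2 scale, one panel per RNA; each point is an array, marked by replicate number. Against Meg3 the controls lie at 0.12 to 0.42, the surgery arrays at 0.50 to 0.60 and the Maresin 1 arrays at 0.70 to 0.81.

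The Dlk1-Dio3 domain holds the microRNA genes printed above, downstream of Meg3. Of its 36 measured microRNA genes, 29 lay above the olfactory receptor level. In surgery minus control 27 of these 29 were lower, with a median of -0.23. Of all 13363 genes above that level 5668 were lower, with a median of 0.02. None of the 29 passed the test, and 3 were lower without overlap, against 563 of the 13363. With Maresin 1, 25 of 29 were lower than control (median -0.13), against 6585 of the 13363. Compared with surgery, 24 of 29 were higher with Maresin 1 (median 0.10), against 5952 of the 13363. In either of these comparisons 0 of the 29 were called.

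Most of the microRNA genes followed Meg3 over the arrays, a pattern not particular to the domain. Snhg11, on chromosome 2, correlated with Meg3 at 0.980, and Mir341 with Lncpint, on chromosome 6, at 0.944. The correlation of the 29 with Meg3 ran from -0.10 to 0.97 with a median of 0.77, and 27 were above 0, where the median over all genes above the olfactory receptor level was -0.15. Mir341 correlated with Meg3 at 0.923, Mir134 at 0.911, Mir485 at 0.890 and Mir665 at 0.931. In control replicate 3, 26 of the 29 were below both other controls, as were 23.0% of all genes above that level. Without control replicate 1, 21 of 29 were lower after surgery (median -0.14), and without control replicate 2 all 29 were. For Maresin 1 against surgery the count higher was 17 of 29 without surgery replicate 1 and 16 of 29 without Maresin 1 replicate 3.

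By the smallest unadjusted p, the genes of the domain that differed most were Mir665 at -0.64 (SE 0.21, limma adjusted p = 0.683 for surgery minus control), Mir329 at -0.50, AF357355, a small RNA gene, at -0.36 and Mir495 at -0.35. The protein-coding genes of the region are given beside them, picked after their values were seen. Dlk1, a Notch-related transmembrane protein, was at 7.94, 7.20 and 8.29 in control, 7.95, 8.46 and 7.56 after surgery and 7.58, 7.83 and 7.93 with Maresin 1, and correlated with Meg3 at -0.39. Dio3, the deiodinase that inactivates thyroid hormone, correlated at -0.48, and Begain, a postsynaptic protein just outside the domain, at 0.05.

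The map of deviations shows these genes beside the 5 RNAs.

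**Figure D4:**
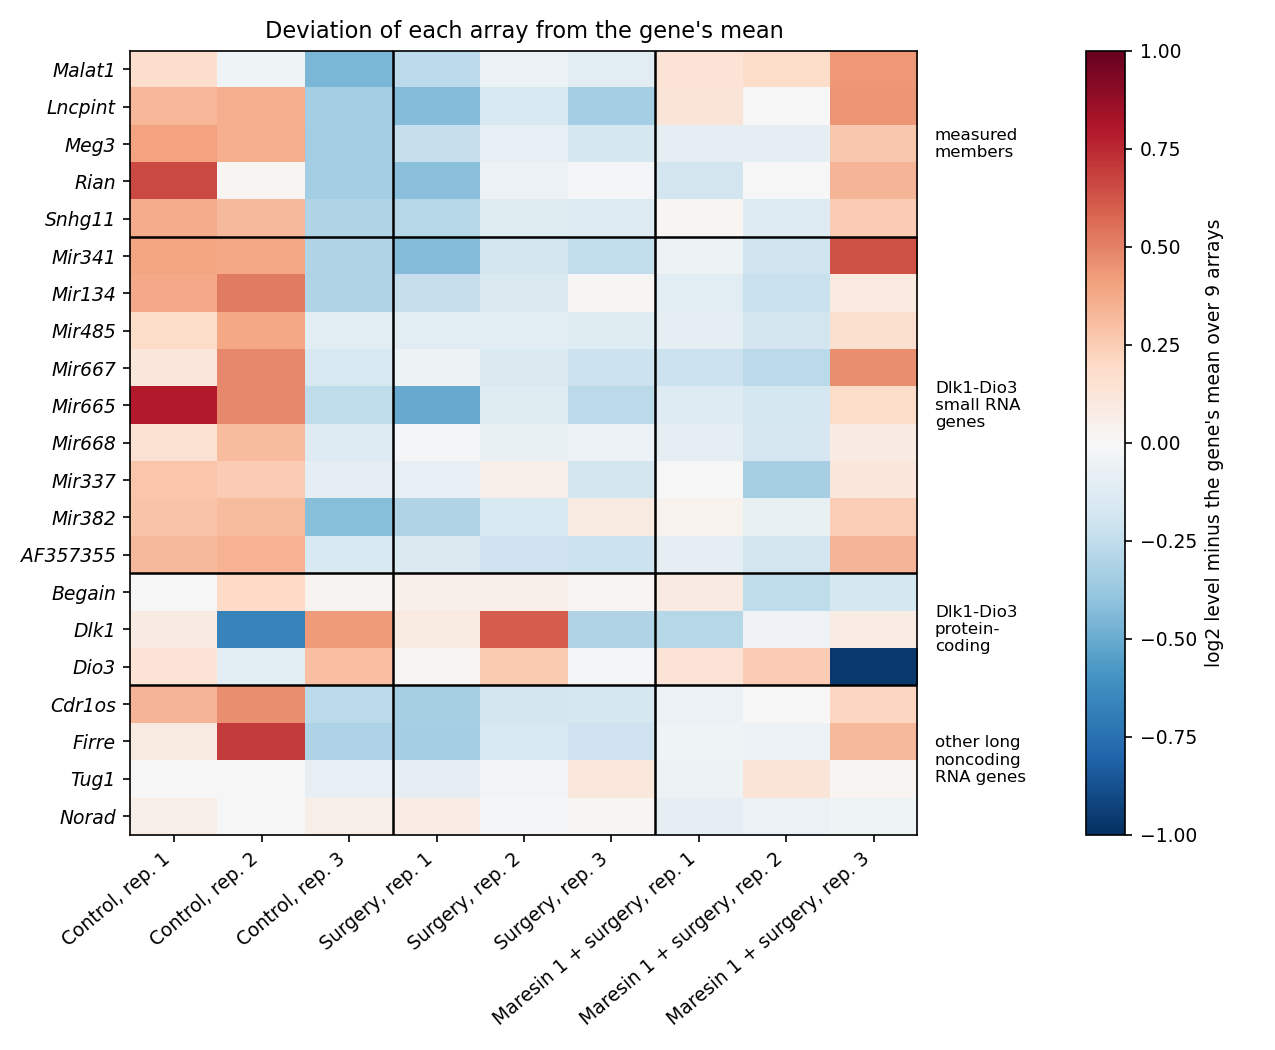
Level of each gene in each array minus the mean of that gene over the 9 arrays, log2, from blue (below) to red (above); rows are the measured RNAs, small RNA and protein-coding genes of the Dlk1-Dio3 domain and other long noncoding RNAs, and columns are arrays by group. Control replicate 1 and Maresin 1 replicate 3 are red and control replicate 3 blue in all 5 measured RNAs, while Norad stays pale.

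Other long noncoding RNAs were mixed: of 50 listed, 18 were measured, 13 lower and 5 higher after surgery (median -0.06), and none passed the test in any comparison. Cdr1os resembled Meg3, at 9.13, 9.25 and 8.52 in control, 8.46, 8.60 and 8.61 after surgery, a surgery difference of -0.41 (SE 0.15, limma adjusted p = 0.739). Gas5, a small nucleolar RNA host gene, differed by -0.51 (SE 0.23) in that comparison. Norad stood between 11.61 and 11.79 and Tug1 between 10.88 and 11.11 in all 9 arrays.

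Proteins of the bodies in which Malat1 and Neat1 reside were examined next. Of 19 measured nuclear speckle and SR splicing factor genes, 13 were lower and 6 higher after surgery (median -0.08), and 14 were higher and 5 lower with Maresin 1 than after surgery (median 0.05), with 0 called. Srsf5, an SR splicing factor, differed by -0.32 after surgery (SE 0.08, limma adjusted p = 0.612), Srsf6 by -0.23 and Son, the speckle core protein, by -0.19, while Srsf3 was 0.16 higher. Their mean deviations were 0.059, 0.095 and -0.115 in the controls, so control replicate 3 was the lowest array here too. Of 14 paraspeckle protein genes, 10 were lower after surgery (median -0.02), among them Taf15 at -0.22 and Ewsr1 at -0.17. With Maresin 1, Tardbp, which encodes TDP-43, was 0.25 and Pspc1 0.16 above control. None passed the test.

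Genes tied to Lncpint were the targets of p53 and the subunits of PRC2. Of 19 measured p53 target genes, 13 were higher after surgery (median 0.05) and 8 were higher with Maresin 1 than in control (median -0.00). One was called: Sesn1, a stress-induced sestrin, was 0.44 higher with Maresin 1 than in control (SE 0.06, limma adjusted p = 0.0382). No gene of the array was called in that comparison without the trend in the variance prior, in a fit of the 2 groups alone, with the replicate number as a block, or without control replicate 2, surgery replicate 3 or any 1 of the 3 Maresin 1 arrays, so the call was lost there. Perp, at -0.68 after surgery and -0.89 with Maresin 1, Sesn2, at 0.29 after surgery, and Aen, a nuclease, at 0.30 after surgery, did not pass. Perp stood at 6.33, 7.20 and 7.65 in control replicates 1 to 3 and between 6.00 and 6.49 in the operated mice. Sesn1 stood at 9.32, 9.34 and 9.41 in control, 9.53, 9.68 and 9.72 after surgery and 9.86, 9.81 and 9.74 with Maresin 1. It was thus higher than control in both operated groups. Of the 10 PRC2 genes, 5 were higher and 5 lower in each comparison with control. With Maresin 1 against control Mtf2 stood at 0.20 and Rbbp7, a histone-binding subunit, at 0.17, while Eed, a core subunit, stood at -0.21 and Phf1 at -0.16, and 0 were called.

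The remaining lists bear on processing and on chromosome position. Of 19 nuclear RNA processing and decay genes, 14 were higher with Maresin 1 than in control (median 0.05), led by Rpp30, a subunit of the RNase P that trims the Malat1 end, at 0.23 (SE 0.07, limma adjusted p = 0.223). Rbm7, of the complex that targets nuclear RNA to the exosome, was at 0.22, Pop5 at 0.21 and Rpp21 at -0.20, and 0 were called. Of the 5 genes for RNA-binding partners of Miat, 4 were lower after surgery and 0 were called, with Rbfox3 at -0.14 with Maresin 1 against control. Of the 20 nearest measured protein-coding neighbours of the 7 genes, 11 were higher and 9 lower after surgery, with 0 called. Podxl, near Lncpint, was 0.46 higher after surgery (SE 0.10, limma adjusted p = 0.507), opposite in sign to Lncpint. Ltbp3, near Malat1 and Neat1, was at 8.58 and 8.60 in control replicates 2 and 3 and between 7.92 and 8.09 elsewhere. Mn1, near Miat, was at -0.24 with Maresin 1 against control.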

How the data were processed

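The authors deposited linear intensity values, 1 for each probe set and array. The submitters' processing notes name Affymetrix Expression Console, and the sources used here give neither its version nor the algorithm. Groups came from the titles, and the 9 arrays have no read depth, so their number limits precision. Of 35556 probe sets, 21218 name 1 gene, 1881 several and 12457 none in the probe table used; 21185 matched RefSeq, and the highest-mean probe set stood for each of 18820 genes. Intensities were quantile normalised, 16 was added and log2 taken, which understates changes of dim genes. Groups were compared with limma 3.58.1 in R 4.3.3 (all 9 arrays, no covariate, variance trend, two-sided), adjusted by Benjamini-Hochberg over all genes and called under 0.05. The script was tested on simulated data.

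The members and lists were chosen with earlier results of these data known. Named genes were the members, up to 4 per list with the smallest p in a comparison with control, called genes up to 6, the 3 genes most alike each member, and Ttr; not every gene the rule gives is printed. Tug1, Mir134, Mir485, Dlk1, Dio3, Begain, the further genes drawn in the map of deviations, and Malat1 set against the others within arrays fall outside the rule and were chosen after values were seen. Alternatives covered normalization, pseudocount, dim genes, probe set, variance prior, groups fitted, replicate number as a block and left-out arrays. Promoter and microRNA sequences are RefSeq, GRCm38.p6; the sources used here name no build for the array files.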

Additional observations from a re-analysis of the deposited data

How the results depend on the processing

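Each comparison with control was recomputed under 20 alternatives and the other under 19. Of 200 member values so obtained, 187 kept their sign and their side of the threshold, 12 changed sign, and 1, Malat1 against control without control replicate 1, passed it. The controls left in that fit were only those with high Ttr. Of 95 values of Maresin 1 with surgery minus surgery, 92 moved by less than 1 SD, pooled over the 2 groups compared. Median scaling moved Malat1 to 0.21, Meg3 to 0.02 and Snhg11 to 0.07. Leaving out dim genes, the variance prior, the groups fitted, the replicate block and an array left out of the third group could not move a difference. Both counts include such values, fixed in advance, and so overstate how stable the differences were. Lncpint in surgery minus control stayed between -0.66 and -0.27, and Malat1 in Maresin 1 with surgery minus control between 0.08 and 0.50.

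Values that changed sign were Malat1 in surgery minus control, at 0.10 with median scaling and from -0.21 to 0.11 with each array left out, and 4 genes in Maresin 1 with surgery minus control. There, leaving out each array gave Lncpint from -0.16 to 0.20, Meg3 from -0.36 to 0.015, Rian from -0.29 to 0.21 and Snhg11 from -0.30 to 0.037. Control replicate 1 as the single control, assumed to vary like the other groups, put Lncpint at -0.14. It put Rian at -0.61, Meg3 at -0.38 and Snhg11 at -0.33, each below its range. In surgery minus control it put Malat1 at -0.32, also below its range. The cause was not tested.

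For surgery minus control the genes called, 0 as reported, were 37 with median scaling, 42 without normalization and 0 to 169 with each array left out. For Maresin 1 with surgery minus control, 16 as reported, they were 38 and 43, 4 with control replicate 1 as the single control, 0 to 245 with each array left out, and 0 without the variance trend or with the 2 groups alone. The third comparison had 0 in every setting run, with 1065 genes at an unadjusted limma p under 0.05. With the replicate block the genes called were 0 in Maresin 1 with surgery minus control and in both other comparisons, and no member changed its call. Same-numbered arrays did not deviate together (r from -0.24 to 0.05 over 9 pairs of arrays). With 3 arrays per group, and control replicates 2 and 3 apart from the rest, this cannot show whether the numbers pair the samples.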
